A study of Mus musculus with 2 samples.

Results

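Basement membranes are the thin sheets of matrix on which epithelia and endothelia rest, and in the kidney they form the filter of the glomerulus and the walls of every tubule. Each is built from a laminin network and a collagen IV network. A laminin is a trimer of 1 alpha, 1 beta and 1 gamma chain, and collagen IV chains wind into triple helices of fixed composition. Nidogens and heparan sulfate proteoglycans link both networks, and dystroglycan and integrins hold cells to them. In the developing nephron the chain composition is known to change with maturation: Lama1 and Lamb1 precede Lama5 and Lamb2, and Col4a1 and Col4a2 precede Col4a3, Col4a4 and Col4a5 in the glomerular membrane.

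The 31 genes described here are laminin chains, collagen IV chains, linkers, associated matrix proteins and the receptor gene Dag1, of 43346 mouse genes measured. They were chosen by name, not by level, and each was matched by stable identifier in both the gene and the transcript tables. The tissue was healthy kidney of the mouse strain B6NCrl, taken on embryonic day 16.5, when progenitors, forming glomeruli and maturing tubules coexist, and the assay was total RNA sequencing. The samples form 1 group of 2 biological replicates, each pooled over male and female embryos (41 of them for replicate 2). There is no second age, tissue or treatment, so chains were compared within a library and pools with each other. An exact test over 2 libraries cannot give a two-sided p under 0.5, so differences between chains are set beside the spread of the libraries and carry no p.

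Expected counts on mouse genes summed to 34261328 in replicate 1 and 37900132 in replicate 2, at which 10 counts on a 2 kb message came to 0.218 and 0.201 TPM (a level corrected for message length and scaled to a common sum). Podocyte (6 of 6), endothelial (6 of 6) and stromal (5 of 5) markers reached 1 TPM in both libraries. So did tubule and duct (6 of 6) and nephron progenitor (4 of 4) markers. The tissue was whole, so these cell types all contribute, and fewer cells of a type cannot be told apart from less RNA per cell. At that level 62.2% of protein-coding genes and 5 of 5 adrenal markers also passed, so detection alone cannot bear out the kidney label. Further marker lists differed between the pools to unequal degrees. Smooth muscle markers summed to 380 TPM in replicate 1 and 732 TPM in replicate 2, and 5 of 5 differed over 1.5-fold. Skeletal muscle markers summed to 94.6 and 193 TPM (4 of 5 detected, Myod1 below 1 TPM), a gap that lay mainly in Acta1 (48.3 and 139 TPM), and Mylpf had 22.4 and 21.2 TPM. Adrenal markers summed to 70.4 and 99.2 TPM (5 of 5) and went opposite ways: Cyp11a1, Hsd3b1 and Star were over 1.5-fold higher in replicate 2, and Chga and Th over 1.5-fold higher in replicate 1. Nerve and glia markers summed to 31.5 and 21.8 TPM (3 of 4) and cartilage markers to 22.5 and 24.1 TPM (2 of 3). The part of these tissues in the values below was not tested.

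Of the 31 basement membrane genes, 29 reached 1 TPM in both libraries, against 34.7% of all mouse genes and 62.2% of protein-coding genes. The 2 below that level were Lama3 and Ntn4. Together the genes held 3283 TPM in replicate 1 and 3434 TPM in replicate 2, or 0.328% and 0.343% of the total, with a median of 56.1 and 60.7 TPM. Sparc, which encodes a collagen-binding matrix protein, stood highest with 1362 and 1437 TPM and ranked 43 among protein-coding genes. Col4a1 (252 and 282 TPM), Col18a1 (207 and 212 TPM) and Fbln1 (174 and 169 TPM) were the other members among the first 1000 protein-coding genes.

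**Figure D1:**
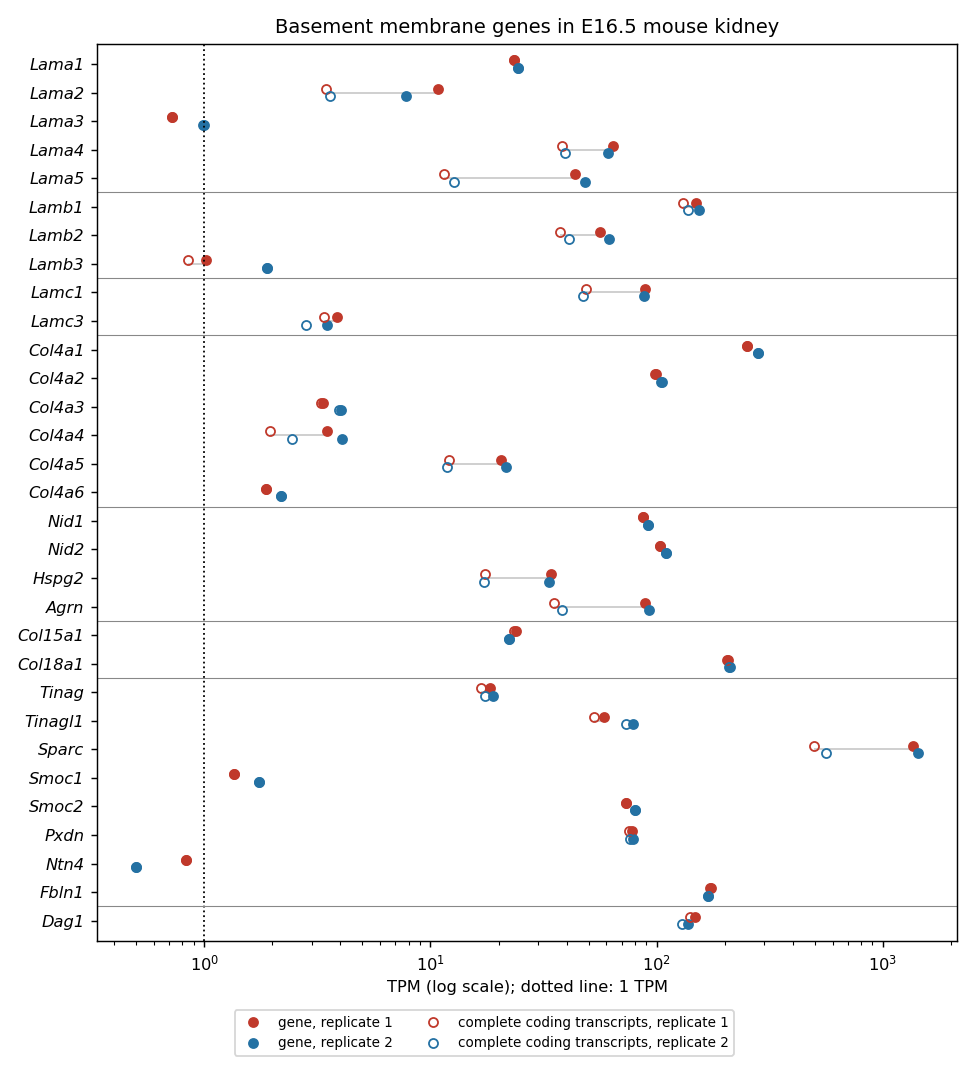
Level of each gene in both libraries, in TPM on a log axis, with genes grouped by role from the laminin alpha chains at the top to the receptor Dag1 at the bottom. Filled points are gene totals and open points the sum of complete coding transcripts. Lama3 and Ntn4 lie left of the dotted line at 1 TPM, and Lama2, Lama5, Agrn and Sparc show the widest gaps between filled and open points.

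The gene totals include every annotated transcript, and for several members short noncoding or partial models took a large part of them. TPM divides counts by length, so a short model with few reads can outweigh a full message of many kilobases. For that reason each chain is also given by its complete coding transcripts, meaning protein-coding models in GENCODE M21 with no missing start or end. By this measure 28 members reached 1 TPM in both libraries, and the share of all genes that did so was not counted.

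Among laminin alpha chains, Lama4 was highest and the order of Lama5 and Lama1 depended on the measure. Lama4, the alpha chain of endothelial and mesenchymal membranes, stood at 64.3 TPM in replicate 1 and 60.7 TPM in replicate 2, or 38.3 and 39.2 TPM by complete coding transcripts. Lama5, the alpha chain of mature glomerular and tubular membranes, had 43.6 and 48.4 TPM as a gene (chromosome 2, 180176373 to 180225859 on mm10, minus strand). Lama1, the alpha chain of early nephron epithelium, had 23.4 and 24.4 TPM (chromosome 17, 67697259 to 67822647, plus strand). Both libraries thus had more Lama5 than Lama1 by gene totals, and the libraries did not overlap between these genes. The log2 ratio of Lama5 to Lama1 was 0.94 ± 0.06 (SD, n = 2), or 1.86-fold and 1.98-fold in the libraries.

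By complete coding transcripts the direction turned round. Lama5 then stood at 11.5 and 12.7 TPM and Lama1, which has 1 annotated transcript, again at 23.4 and 24.4 TPM. The log2 ratio was -0.98 ± 0.06 (SD, n = 2), with Lama5 at 0.491 and 0.521 of Lama1. The only complete coding model of Lama5, Lama5-201, spans 11388 nt and took 90.0% and 90.1% of the gene's counts but 26.4% and 26.3% of its TPM. The remaining TPM lay on Lama5-202 (451 nt), Lama5-203 (734 nt) and Lama5-204 (478 nt), all annotated as processed transcripts. Lama5-202 had 85.6 and 113.5 counts, Lama5-203 had 147.1 and 161.1, and Lama5-204 had 99.7 and 118.5. These counts, a small part of those of the gene, set which chain appeared higher, so the order of Lama5 and Lama1 is not settled by these tables.

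Lama2, known from muscle, nerve and the glomerular mesangium, was lower at 10.8 and 7.83 TPM, and at 3.45 and 3.58 TPM by complete coding transcripts. Its counts were near each other, with 945 in replicate 1 and 983 in replicate 2. The gap between its gene totals lay mainly in the retained-intron model Lama2-206, with 4.34 and 2.11 TPM from 54.1 and 28.6 counts. Lama3, the alpha chain of epithelial anchoring structures, had 0.720 and 0.990 TPM from 122 and 198 counts. Its long form Lama3-201 had 0.280 and 0.510 TPM. The short form Lama3-202, whose start lies 170 kb downstream, had 0.440 and 0.490 TPM. Neither form reached 1 TPM in a library.

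The beta chains kept 1 order under every measure run. Lamb2, the beta chain of mature glomerular and vessel membranes, had 56.1 and 61.9 TPM (chromosome 9, 108479736 to 108490530, plus strand). Lamb1, the earlier beta chain of the glomerular membrane, had 150 and 154 TPM (chromosome 12, 31265234 to 31329644, plus strand), above Lamb2 in both libraries. These are totals over whole kidney, not over 1 type of membrane. The log2 ratio of Lamb2 to Lamb1 was -1.37 ± 0.08 (SD, n = 2), with Lamb2 at 0.373 and 0.403 of Lamb1. By complete coding transcripts Lamb2 had 37.4 and 41.0 TPM and Lamb1 131 and 137 TPM, a log2 ratio of -1.77 ± 0.05. Lamb1 made up 72.5% and 70.7% of beta chain TPM. Lamb3, which pairs with Lama3 in epithelial laminin, was near the detection level with 1.02 and 1.90 TPM from 78 and 189 counts.

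Lamc1, the gamma chain of most laminins, stood at 89.1 and 87.8 TPM, and at 48.6 and 47.1 TPM by complete coding transcripts. Lamc3, a gamma chain of restricted distribution, had 3.88 and 3.50 TPM, or 0.0435 and 0.0399 of Lamc1 (0.0695 and 0.0599 by complete coding transcripts). Summed over the members, gene totals came to 143 and 142 TPM for alpha, 208 and 217 TPM for beta, and 93.0 and 91.3 TPM for gamma chains. By complete coding transcripts the sums were 77.4 and 80.9 TPM for alpha, 169 and 179 TPM for beta, and 52.0 and 49.9 TPM for gamma chains. Beta chains were highest on both scales, and the libraries did not overlap between the 3 groups.

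**Figure D2:**
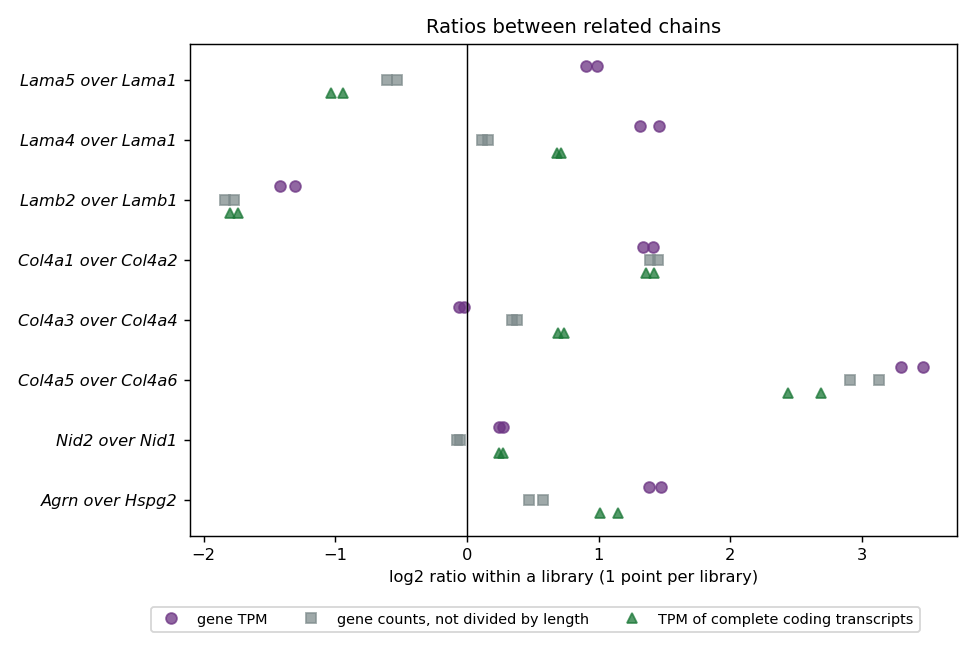
Log2 ratio of the first to the second chain within a library, 1 point per library, by gene TPM, by gene counts not divided by length and by TPM of complete coding transcripts. Lama5 over Lama1 lies right of 0 by gene TPM (0.94 on average) and left of 0 by both other measures, whereas Lamb2 over Lamb1 and Col4a1 over Col4a2 stay on 1 side.

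Collagen IV was dominated by its ubiquitous chains. The chains Col4a3, Col4a4 and Col4a5 form the network of the mature glomerular membrane, and mutations of these genes cause Alport syndrome in humans. Col4a3 had 3.34 and 4.03 TPM, Col4a4 had 3.47 and 4.08 TPM, and Col4a5 had 20.6 and 21.5 TPM. Col4a1 had 252 and 282 TPM and Col4a2 had 99.4 and 106 TPM, so each lay above Col4a3, Col4a4 and Col4a5 in both libraries. The tissue was whole, so a stage of maturation cannot be told apart from the number of cells that make a chain. The mean of log2 TPM over Col4a3, Col4a4 and Col4a5 lay below that over Col4a1 and Col4a2, with a difference of -4.64 ± 0.05 (SD, n = 2), or 25.0-fold lower. By complete coding transcripts the difference was -5.18 ± 0.04, or 36.2-fold lower. Col4a6, which pairs with Col4a5 in other membranes such as that of the Bowman capsule, had 1.87 and 2.19 TPM from 281 and 358 counts.

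The 6 chains lie as 3 pairs of genes that start next to each other and run in opposite directions. On mm10, Col4a2 (chromosome 8, plus strand) starts at 11312805 and Col4a1 (minus strand) at 11312826, so their first exons overlap by 22 nt. Col4a3 (chromosome 1, plus strand, first base at 82586976 in its full-length model) and Col4a4 (minus strand, 82586849) are 127 nt apart, and Col4a5 (plus strand, 141475385) and Col4a6 (minus strand, 141474076) on the X chromosome 1309 nt apart. Partners from 1 such region differed in level to unequal degrees. Col4a1 stood 2.54-fold and 2.66-fold above Col4a2, and 2.56-fold and 2.67-fold by complete coding transcripts. Col4a5 stood 11.0-fold and 9.82-fold above Col4a6, and 6.45-fold and 5.41-fold by complete coding transcripts. Col4a3 was at 0.963 and 0.988 of Col4a4 by gene totals, but at 1.67 and 1.61 of it by complete coding transcripts, since Col4a4-202, a retained-intron model of 1263 nt, took 43.5% and 40.0% of Col4a4. Col4a5, whose product combines with those of both Col4a3 and Col4a4, stood 6.17-fold and 5.34-fold above Col4a3, and 3.68-fold and 3.01-fold by complete coding transcripts.

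The start regions of these pairs are shown because their partners' levels can be read beside them. The windows run from 250 bases before to 50 after a RefSeq start (GRCm38.p6), 5′ to 3′ on the strand of the gene named, with GGGCGG (GC box) and CCAAT in either orientation in capitals. The Col4a2 window, chr8:11312555-11312854 on the plus strand, holds the starts of Col4a1 and Col4a2. The Col4a4 window, chr1:82586800-82587099 on the minus strand, holds those of Col4a4 and Col4a3. Col4a6 (chrX:141474027-141474326, minus strand) and Col4a5 (chrX:141475169-141475468, plus strand) have a window each.
Col4a2 and Col4a1: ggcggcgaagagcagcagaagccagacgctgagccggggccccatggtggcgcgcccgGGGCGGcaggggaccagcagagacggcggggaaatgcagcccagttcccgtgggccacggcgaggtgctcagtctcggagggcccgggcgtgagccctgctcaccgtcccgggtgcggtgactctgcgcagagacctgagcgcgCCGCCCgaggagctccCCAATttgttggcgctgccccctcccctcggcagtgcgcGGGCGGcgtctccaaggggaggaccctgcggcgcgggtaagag
Col4a4 and Col4a3: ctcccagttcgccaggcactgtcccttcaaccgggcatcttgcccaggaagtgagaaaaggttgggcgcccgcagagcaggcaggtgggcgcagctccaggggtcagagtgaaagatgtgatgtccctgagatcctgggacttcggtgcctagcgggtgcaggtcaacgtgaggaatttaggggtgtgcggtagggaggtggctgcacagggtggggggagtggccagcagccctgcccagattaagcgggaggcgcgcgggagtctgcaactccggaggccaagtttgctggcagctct
Col4a6: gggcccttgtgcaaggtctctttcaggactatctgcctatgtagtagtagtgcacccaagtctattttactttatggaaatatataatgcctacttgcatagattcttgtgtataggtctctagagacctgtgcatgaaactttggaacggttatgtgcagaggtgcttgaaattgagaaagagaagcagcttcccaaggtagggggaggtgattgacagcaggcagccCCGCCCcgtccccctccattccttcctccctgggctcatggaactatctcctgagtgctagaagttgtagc
Col4a5: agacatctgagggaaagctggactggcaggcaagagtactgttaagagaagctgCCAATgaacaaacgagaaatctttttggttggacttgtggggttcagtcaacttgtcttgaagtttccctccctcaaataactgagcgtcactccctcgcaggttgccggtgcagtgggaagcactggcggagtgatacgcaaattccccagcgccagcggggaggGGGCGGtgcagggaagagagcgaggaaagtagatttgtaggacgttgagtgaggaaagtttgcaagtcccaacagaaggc

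The shared Col4a2 and Col4a1 window has 3 GC boxes, 1 CCAAT and a GC content of 73.7%. It was placed by the Col4a2 start, and most of it lies downstream of the Col4a1 start. The Col4a4 and Col4a3 window has neither motif and a GC content of 63.3%. It lies at the starts of the 2 collagen IV genes of the glomerular network with the lower levels. Col4a6, whose window does hold a GC box, was lower still at 1.87 and 2.19 TPM. Any link between motifs and level was not tested. Placed by the Col4a4 start, the Col4a4 and Col4a3 window also runs past the Col4a3 start. The Col4a6 window has 1 GC box (48.3% GC) and the Col4a5 window 1 GC box and 1 CCAAT (52.7% GC). TATAAA was found in none of these 4 windows on either strand. Among 32851 RefSeq windows of the same length, 35.7% hold GGGCGG, 37.4% CCAAT and 13.6% TATAAA. No matches of different motifs overlap, and a match describes the window only.

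Of the 4 linker genes, Nid2, Agrn and Nid1 were close to each other by gene totals and Hspg2 was lower. Nid1 and Nid2 encode nidogens, which bridge laminin and collagen IV. Nid2 had 103 and 110 TPM and Nid1 87.2 and 91.6 TPM, each with 1 annotated transcript. The ratio of Nid2 to Nid1 was 1.18 and 1.20, but 0.949 and 0.969 by counts not divided by length. Agrn encodes agrin, the main heparan sulfate proteoglycan of the mature glomerular membrane, and Hspg2 encodes perlecan, found in most basement membranes. Agrn had 89.0 and 92.7 TPM and Hspg2 had 34.2 and 33.4 TPM, so Agrn was 2.60-fold and 2.78-fold higher. By complete coding transcripts Agrn had 35.1 and 38.3 TPM and Hspg2 had 17.4 and 17.2 TPM, so Agrn stayed higher, by 2.01-fold and 2.22-fold.

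Of the complete Agrn models, Agrn-206 led with 31.1 and 34.7 TPM, while Agrn-201, Agrn-202 and Agrn-203 together had 3.98 and 3.56 TPM. Dag1, whose product dystroglycan binds laminins, agrin and perlecan on the cell side, stood at 148 and 137 TPM. Of its models, Dag1-204 led with 51.9% and 54.5% of TPM, followed by Dag1-201 with 27.0% and 26.7%.

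Both multiplexin collagens, whose C-terminal fragments act on vessels, were detected, and Col18a1 was the higher one. Col18a1 had 207 and 212 TPM and Col15a1 had 23.9 and 22.3 TPM, a ratio of 8.65 and 9.51. Col18a1 is read from separate starts 52.8 kb apart. The model Col18a1-202, from the upstream start, held 170 and 177 TPM (82.3% and 83.5% of the gene). Col18a1-201 and Col18a1-203, from the downstream start, together held 34.4 and 32.8 TPM (16.6% and 15.5%). Both libraries gave the same order, and the shares differed less between libraries than between starts. The windows at both starts are printed to show what lies at each, the upstream one at chr10:77166481-77166780 and the downstream one at chr10:77113656-77113955, both on the minus strand of mm10 and marked as above.
Col18a1 upstream start: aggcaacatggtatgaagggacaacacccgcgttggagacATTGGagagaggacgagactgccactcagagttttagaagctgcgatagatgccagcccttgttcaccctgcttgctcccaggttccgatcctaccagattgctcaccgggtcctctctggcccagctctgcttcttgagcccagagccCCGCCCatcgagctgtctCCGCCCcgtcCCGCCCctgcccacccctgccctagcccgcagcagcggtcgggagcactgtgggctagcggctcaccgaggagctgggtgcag
Col18a1 downstream start: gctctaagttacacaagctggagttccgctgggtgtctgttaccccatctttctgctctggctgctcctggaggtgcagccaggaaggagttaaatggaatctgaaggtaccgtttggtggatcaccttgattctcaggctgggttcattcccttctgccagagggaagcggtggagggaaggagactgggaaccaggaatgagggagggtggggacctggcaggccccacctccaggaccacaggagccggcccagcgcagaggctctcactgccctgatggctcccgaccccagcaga

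The upstream window has 3 GC boxes and 1 CCAAT, read on the opposite strand as ATTGG, with a GC content of 63.3%. The downstream window has neither motif and a GC content of 59.7%, and neither window has TATAAA. The start with the motifs was the one with the larger share of Col18a1 TPM. This describes 1 gene, and any link between motifs and share was not tested.

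The associated matrix genes covered the widest range. After Sparc came Fbln1, encoding fibulin-1, with 174 and 169 TPM. Fbln1-202 held 83.4% and 83.0% of it and Fbln1-201, which ends 34.6 kb away, 16.1% and 16.9%. Pxdn, encoding peroxidasin, which crosslinks collagen IV through sulfilimine bonds, had 78.1 and 78.8 TPM, nearly equal in the libraries. Smoc2 and Smoc1 encode calcium-binding relatives of Sparc: Smoc2 had 73.1 and 80.0 TPM and Smoc1 1.35 and 1.75 TPM, a ratio of 54.2 and 45.7. Tinag, the tubulointerstitial nephritis antigen of tubular membranes, had 18.4 and 19.0 TPM, and its relative Tinagl1 had 58.3 and 78.5 TPM. Ntn4, a netrin that binds laminin gamma chains and opens laminin networks, had 0.830 and 0.50 TPM from 68 and 44 counts.

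Sparc itself showed how far gene totals and complete messages can part. Its complete models Sparc-201 and Sparc-202 held 495 and 562 TPM, or 36.3% and 39.1% of the gene. The retained-intron model Sparc-205 (741 nt) held 642 and 686 TPM, and the incomplete coding model Sparc-206 (640 nt) 220 and 187 TPM. By complete coding transcripts Sparc still stood above every other member in both libraries.

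Transcript shares were alike in both libraries for most members. The 31 genes have 136 annotated transcripts in the tables, of which 56 are complete coding models. Of 25 detected members with several transcripts, 23 had the same leading transcript in both libraries, near the 91.5% of all such mouse genes. The other 2 were Lama2 and Lama5. In Lama2 the leading model was Lama2-206 in replicate 1 (40.0%) and Lama2-201 in replicate 2 (44.8%). In Lama5 it was Lama5-201 in replicate 1 (26.4%) and Lama5-202 in replicate 2 (26.7%), within 1 percentage point of the next model each time. In 3 of the 25 members the leading model was not a complete coding one in either library, against 10.5% of detected protein-coding genes with several transcripts. These were Agrn (Agrn-205, 56.5% and 56.2%), Hspg2 (Hspg2-202, 49.1% and 48.3%) and Sparc (Sparc-205, 47.1% and 47.7%).

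**Figure D3:**
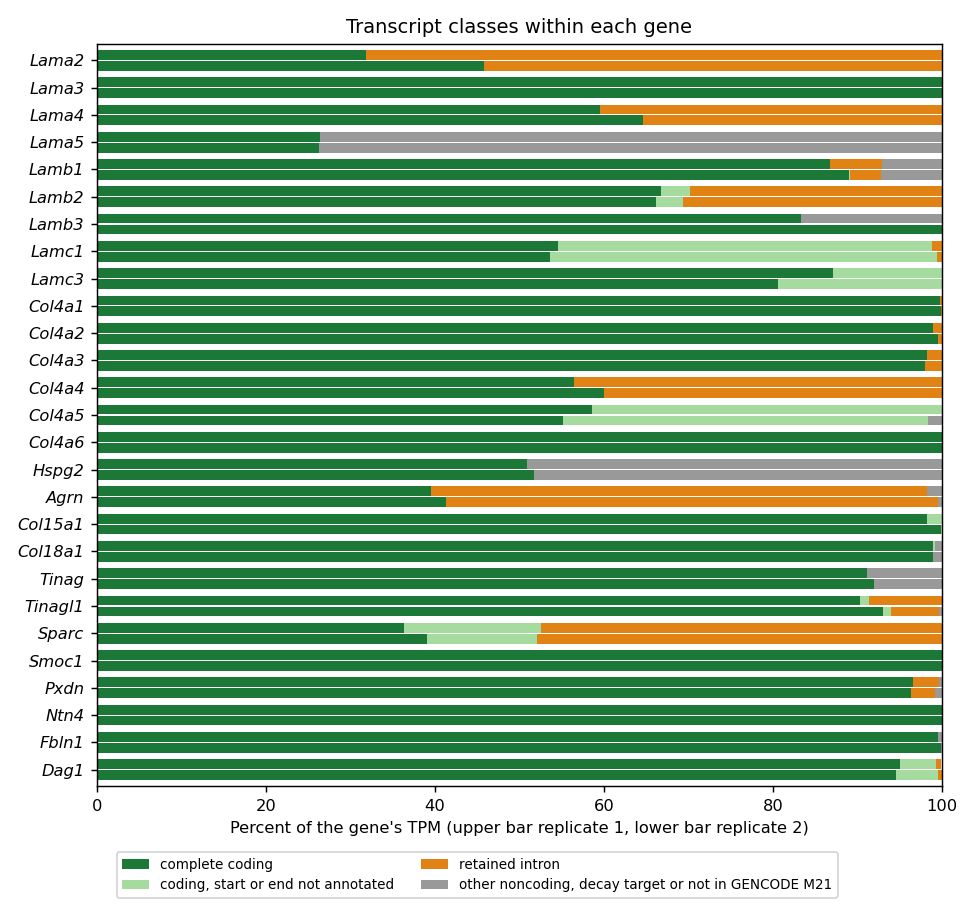
Share of each gene's TPM by transcript class for the 27 members with several transcripts, in percent, with replicate 1 as the upper bar and replicate 2 as the lower. Complete coding transcripts (dark green) hold 26.4% and 26.3% of Lama5 and 99.8% and 99.9% of Col4a1, and the bars of 1 gene differ most in Lamb3 and Lama2.

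The median share of complete coding transcripts over the 25 detected members with several transcripts was 91.6%. It was 87.8% over detected protein-coding genes with several transcripts. The complete coding share was lowest in Lama5 (26.4% and 26.3%), Sparc (36.3% and 39.1%), Lama2 (31.8% and 45.8%) and Agrn (39.5% and 41.3%). It was 99.8% and 99.9% in Col4a1 and 99.0% and 99.6% in Col4a2. In Lamb3 it was 83.3% in replicate 1, where 1 count on the 355 nt model Lamb3-207 made up the rest.

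The incomplete models of these long genes often lay near the 3′ end of the message. In 11 members 1 incomplete model held at least 10% of TPM on average. The centre of its overlap with the longest complete coding message lay in the last of 3 equal parts of that message for 7 of them, against 17.3% of 4081 genes placed in the same way. They were Lama5-204 (96.1% of the way along), Lama4-207 (95.8%), Hspg2-202 (93.8%), Lamc1-204 (86.5%), Agrn-205 (86.2%), Lamb2-205 (86.0%) and Col4a5-204 (73.1%). In Lama2-206 (4.27%) and Col4a4-202 (4.32%) it lay near the start, and in Sparc-205 (41.6%) and Lamc3-203 (39.0%) in between. The genes with a 3′ model have complete messages of 5629 nt (Lamb2) to 14187 nt (Hspg2), and how message length or read coverage bears on this was not tested.

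**Figure D4:**
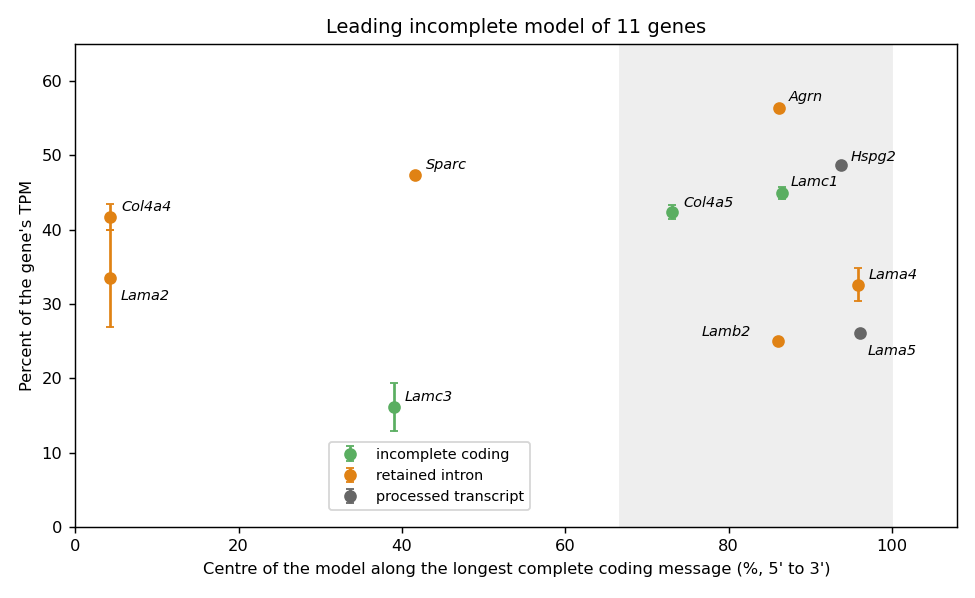
Position of the leading incomplete model along the longest complete coding message (percent, from the 5′ to the 3′ end) against its share of the gene's TPM in percent, for the 11 members where that share was at least 10%. Points are means of both libraries, bars run to both values and colours give the annotated class. The 7 points in the grey area lie between 73.1% and 96.1% of the message.

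Reads of some members cannot be assigned to a strand, since the sources used here do not give strandedness. Exons of 9 members overlap exons on the opposite strand, and the share of all genes with such an overlap was not counted. The largest protein-coding overlap is that of Nid2 with Rtraf (437 nt, 160 and 165 TPM for Rtraf). Col4a3 overlaps C430014B12Rik by 563 nt (2.20 and 1.88 TPM), against 3.34 and 4.03 TPM for Col4a3 itself. Their part in the values of Nid2 and Col4a3 was not tested.

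Genes that process, bind or crosslink these proteins were detected throughout, 32 of 32 over 4 lists. Of 11 genes for collagen folding and modification, the chaperone gene Serpinh1 was highest (1333 and 1448 TPM), followed by P4hb (699 and 779 TPM), a subunit of prolyl 4-hydroxylase, and Mia3 (86.5 and 79.6 TPM), which serves collagen export. Mia3 had 9.18 and 9.17 TPM by complete coding transcripts, below P4ha1 with 59.4 and 65.5 TPM and Colgalt1 with 60.3 and 61.6 TPM. P3h2, a prolyl 3-hydroxylase, was lowest with 5.13 and 5.90 TPM. Of 9 laminin and collagen receptor genes, the integrin gene Itgb1 (236 and 256 TPM), the Lama5 receptor gene Bcam (230 and 259 TPM) and the collagen receptor gene Ddr1 (87.9 and 89.1 TPM) led, and Itga2 was lowest (1.68 and 1.86 TPM). The enzymes that glycosylate dystroglycan were led by B4gat1 (52.7 and 56.4 TPM) and Pomgnt1 (48.5 and 55.0 TPM). The 5 lysyl oxidases, which crosslink collagens, ran from Lox (49.4 and 53.6 TPM), Loxl2 (35.8 and 32.6 TPM) and Loxl1 (26.6 and 30.4 TPM) to Loxl4 (1.72 and 1.34 TPM).

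The pools differed little in these genes. Scaled counts were compared as the log2 ratio of replicate 1 over replicate 2, over 15363 genes averaging 1 CPM or more (counts scaled to library size), a filter all 31 members passed. With 1 library on each side there is no test, and the 95% intervals given are exact binomial ones that cover counting error only. Their median ratio was -0.06, against 0.00 over all genes, and 27 of 31 lay within 1.3-fold, as did 87.9% of all genes.

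Ntn4 was over 1.5-fold higher in replicate 1 (log2 0.73, interval 0.19 to 1.34), the only member so called, against 3.85% of all genes in that direction. Lamb3 was over 1.5-fold higher in replicate 2 (log2 -1.13, interval -1.55 to -0.76), the only member so called, against 2.03% of all genes in that direction. Scaled to spike-ins, which shifts the median of all genes to -0.43, the Ntn4 ratio was 0.31 and no longer past 1.5-fold. Both rest on low counts, 68 and 44 for Ntn4 and 78 and 189 for Lamb3. Just inside the limit lay Lama3 (log2 -0.56, interval -0.91 to -0.24) and Tinagl1 (log2 -0.45, interval -0.52 to -0.37), both higher in replicate 2. Smooth muscle markers, with a median log2 ratio of -0.94, were also higher in replicate 2, and their part in these ratios was not tested. None of the 32 genes of the processing, receptor and crosslinking lists passed 1.5-fold (0 of 32). The laminin receptor gene Itga6 came nearest with log2 -0.50, and by counts of complete coding transcripts, at -0.74, it did pass.

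By these scaled counts, not scaled to spike-ins, several chains were nearly equal in both pools. Lama4 (log2 0.00), Col4a5 (log2 -0.01), Pxdn (log2 0.00) and Col18a1 (log2 -0.03) had ratios near 0. Col4a1 (log2 -0.15, interval -0.17 to -0.13) and Lama5 (log2 -0.13, interval -0.20 to -0.07) were slightly higher in replicate 2. Col4a3 (log2 -0.26, interval -0.41 to -0.11) and Col4a4 (log2 -0.29, interval -0.46 to -0.12), which share a start region, deviated by a like amount.

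**Figure D5:**
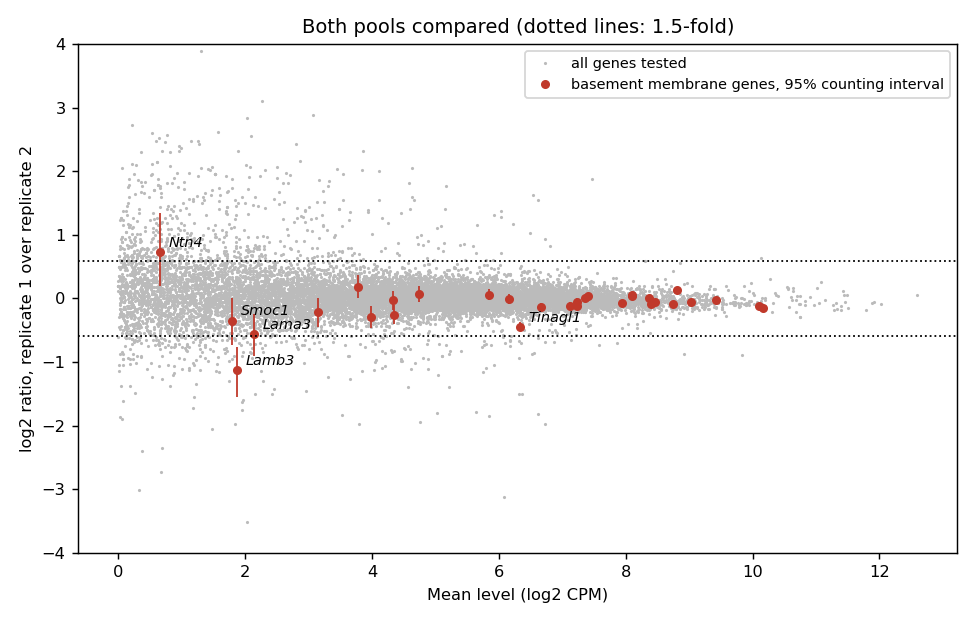
Log2 ratio of replicate 1 over replicate 2 of scaled counts against the mean level in log2 CPM for all genes tested (grey, 14 of them beyond the axis) and for the 31 members (red, with 95% counting intervals). Ntn4 lies above the upper dotted line and Lamb3 below the lower one (1.5-fold), at 0.73 and -1.13, and the members at high levels lie near 0.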

How the data were processed

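Total RNA was measured in 2 libraries, biological replicates 1 and 2 by their labels, from 10 ng of RNA over 200 nt plus spike-ins. The deposited text notes name mm10 and annotation M4. Aligner, quantifier, versions and strand setting: not given in the sources used here. The authors deposited expected counts (estimated, not whole), TPM scaled over all entries, FPKM, the percent of each transcript within its gene, posterior mean TPM, and TPM bounds, a signal that is never negative.

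Names, classes and coordinates came by stable identifier from GENCODE M21 (42462 of 43346 mouse genes matched), and windows from RefSeq (GRCm38.p6). Windows are shown for the collagen IV pairs and Col18a1. Ratios between chains were taken within a library on TPM with no pseudocount. For pools, expected counts of mouse genes were rounded and TMM-scaled (edgeR 4.0.16 under R 4.3.3, prior count 2); DESeq2 1.42.0 size factors were an alternative. Spike-ins, 2.82% and 2.08% of counts, stayed out. The code was tested on simulated data. Other tools were Python 3.11.15, pandas 2.3.3, numpy 2.4.6, scipy 1.17.1 and matplotlib 3.10.9.

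All 31 members are named whatever their level, and of each pathway list the 3 highest and the lowest gene, except for items not reported here. Members and lists were chosen with earlier results of these data known, and the complete coding measure after the values were seen. Pools from separate embryos are stated by the labels; intervals cover counting error only.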

Additional observations from a re-analysis of the deposited data

How the results depend on the processing

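The ratio of Lama5 to Lama1 reversed, from log2 0.94, to -0.57 by expected counts without division by length and to -0.98 by complete coding transcripts only (chosen after seeing the data). The value by complete coding transcripts follows from the short Lama5 models left out, and for counts the cause was not tested. The ratio of Lamb2 to Lamb1 moved from -1.37 to -1.81 by counts without length and to -1.77 by complete coding transcripts. The collagen IV difference moved from -4.64 to -4.40 with a pseudocount of 1 TPM, which raises low genes most, and to -5.18 by complete coding transcripts. Posterior mean TPM left these ratios at 0.95, -1.33 and -4.61. Leaving out each replicate in turn gave 0.90 to 0.99 for Lama5 over Lama1, -1.42 to -1.31 for Lamb2 over Lamb1, -4.67 to -4.61 for collagen IV and 29 detected members each time.

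The number of detected members ranged from 26 (2 TPM) to 31 (0.5 TPM), and the share of all genes at those levels was not counted. Members with the same leading transcript numbered 23 by posterior mean percent and 25 by expected counts. With at least 5 TPM they numbered 17, out of fewer members with several transcripts, so the 17 does not show less agreement. The 2 members past 1.5-fold between pools became 7 with spike-in scaling (Lamb3, Lama3, Tinagl1, Smoc1, Col4a4, Col4a3 and Col4a6, all higher in replicate 2, without Ntn4), 0 with a mean of at least 5 CPM (both fall below it) and 1 past 2-fold (Lamb3). Spike-in scaling shifts all genes alike, their median to -0.43. The share of all genes past 1.5-fold on that scale was not counted, so the 7 cannot be read as particular to these members. Lamb3 ranged from -1.55 (spike-ins) to -0.90 (deposited TPM) and Ntn4 from 0.31 (spike-ins) to 0.75 (library size). Outside the 95% counting interval of the reported ratio fell 30 of 31 member ratios by spike-in scaling, 3 by deposited TPM and 1 by complete coding counts. None did so by DESeq2 size factors, library size or a prior count of 0.5. No paired analysis was possible because there is 1 group only. Lama3, Lamb3, Ntn4 and Smoc1 had at most 198 counts in a library, which limits what their levels and transcript shares can show.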
